A study of Homo sapiens with 12 samples.

Results

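PLK1, AURKA, HAUS1, DCTN3 and C16orf59 (the older symbol of TEDC2) were followed in a dual-sgRNA CRISPR interference screen of K562 cells, a human chronic myelogenous leukaemia line that carries the transcriptional repressor of CRISPR interference. Constructs were taken when either of their sgRNA positions held a sgRNA named for one of these 5 genes and the mean count of the 4 T0 libraries was at least 30. Of 22720 such constructs, 18018 passed the minimum (79.3%), against 1267355 of 1301881 in the whole library (97.35%). Each of 543 genes had 2 sgRNAs in the library, which also held 55 controls without a target, and all were paired with one another in both orders, and it was delivered by lentivirus at a low ratio of virus to cells. Each of 2 screens (2022 and 2023) had 2 replicate cultures. Each culture was sampled at T0, on day 9 after transduction, and then divided. The reference arm received vehicle (DMSO), and the niraparib arm received an inhibitor of PARP1 and PARP2, enzymes that mark DNA breaks with ADP-ribose. In 2022 the drug was given at 2 µM for 3 days and cells were harvested on day 18. In 2023 cells were exposed for 4 days, first to 2 µM and from day 2 to 3 µM, and were harvested on day 19. All arms carried the same repressor line and the same library, so the controls are constructs with non-targeting sgRNAs and not untransduced cells.

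The 5 genes act at the mitotic spindle. PLK1 and AURKA encode mitotic kinases that drive centrosome maturation, entry into mitosis and the assembly of a bipolar spindle, and AURKA activates PLK1. HAUS1 encodes a subunit of augmin, the complex that brings gamma-tubulin to existing spindle microtubules so that new ones branch from them. DCTN3 encodes a small subunit of the shoulder of dynactin, the cofactor that lets the motor dynein carry cargo and focus spindle poles. C16orf59 encodes TEDC2, a partner of delta- and epsilon-tubulin in the complex that keeps the triplet microtubules of centrioles stable. Loss of centrioles or a prolonged mitosis can stop dividing cells through p53, and K562 cells are known to lack functional p53.

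Because CRISPR interference acts at the start of a gene, the 250 bases upstream of each start site are shown for the members that the RefSeq promoter table holds (GRCh38.p14), together with those of CSTF1, which begins beside AURKA. Each is given 5′ to 3′ on the strand of its gene. Capitals mark TTTGAA on either strand, the core of the cell cycle homology region through which the MuvB complex acts on many mitotic genes. PLK1 lies at chr16:23678639-23678888 on the plus strand, HAUS1 at chr18:46104135-46104384 on the plus strand, DCTN3 at chr9:34620496-34620745 on the minus strand, TEDC2 at chr16:2459859-2460108 on the plus strand and CSTF1 at chr20:56392129-56392378 on the plus strand.
PLK1: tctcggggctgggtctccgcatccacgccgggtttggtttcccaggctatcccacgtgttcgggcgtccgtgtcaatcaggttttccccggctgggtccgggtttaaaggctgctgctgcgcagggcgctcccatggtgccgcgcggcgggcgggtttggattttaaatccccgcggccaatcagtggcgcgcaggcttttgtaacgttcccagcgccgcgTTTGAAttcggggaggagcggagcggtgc
HAUS1: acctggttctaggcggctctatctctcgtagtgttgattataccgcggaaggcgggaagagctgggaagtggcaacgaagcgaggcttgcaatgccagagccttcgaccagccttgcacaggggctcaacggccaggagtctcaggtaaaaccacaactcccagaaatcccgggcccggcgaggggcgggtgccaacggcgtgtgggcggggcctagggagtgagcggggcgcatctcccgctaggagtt
DCTN3: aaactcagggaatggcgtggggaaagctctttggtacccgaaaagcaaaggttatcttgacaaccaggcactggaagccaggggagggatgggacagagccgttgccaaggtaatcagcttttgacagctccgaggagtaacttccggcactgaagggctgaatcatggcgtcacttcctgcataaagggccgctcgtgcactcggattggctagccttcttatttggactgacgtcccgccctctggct
TEDC2: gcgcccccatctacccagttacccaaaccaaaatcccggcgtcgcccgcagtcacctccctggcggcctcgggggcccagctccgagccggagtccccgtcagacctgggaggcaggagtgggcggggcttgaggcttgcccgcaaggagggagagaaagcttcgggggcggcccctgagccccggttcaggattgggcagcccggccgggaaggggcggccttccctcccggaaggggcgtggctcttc
CSTF1: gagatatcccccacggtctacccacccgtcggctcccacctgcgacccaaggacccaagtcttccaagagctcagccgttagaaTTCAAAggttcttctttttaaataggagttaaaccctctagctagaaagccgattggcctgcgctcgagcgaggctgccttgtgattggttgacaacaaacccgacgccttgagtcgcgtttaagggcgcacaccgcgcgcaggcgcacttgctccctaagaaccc

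The motif occurred once in the PLK1 window, starting 29 bases before the start site, and once on the reverse strand in the CSTF1 window shown. A second CSTF1 window in the table, at chr20:56392395-56392644, held it once on the plus strand, 119 bases before its start site. The motif was not among the letters of the HAUS1, DCTN3 and TEDC2 windows, and 13.3% of all 35116 promoter windows of this length held it. Neighbouring start sites were close for some members. HAUS1 and ATP5F1A, a subunit of ATP synthase, start 158 bases apart in opposite directions, and ATP5F1A was not in the library. CSTF1, a subunit of the cleavage stimulation factor of mRNA 3′ ends, begins 164 bases from the 5′ end of AURKA, and it was in the library. The TEDC2 start lies 131 bases from that of LOC105371050, which was not. Whether a sgRNA also repressed the neighbouring gene was not tested, since no RNA was measured. The numbers in the sgRNA names lay 70 bases apart for PLK1, 448 for AURKA, 19 for HAUS1, 4 for DCTN3 and 17 for C16orf59, and the genome build behind those numbers was not given in the sources used here. The sgRNAs of DCTN3, C16orf59 and HAUS1 thus lie close beside one another, and agreement within these pairs is not that of distant sites.

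The members entered the experiment at very different levels. Over all partners, the median T0 count per construct was 35 and 21.5 reads for the 2 PLK1 sgRNAs and 23.5 and 48 for the 2 HAUS1 sgRNAs. It was 143.5 and 129.8 for AURKA, 123.5 and 167.2 for DCTN3, and 275.5 and 338 for C16orf59. The sgRNAs of all other genes and controls had a median of 205.8, with 79.12 and 327.1 as the 5th and 95th percentiles. PLK1 and HAUS1 thus lay below nearly all of the library, and C16orf59 above its middle. As a share of constructs with 2 different non-targeting sgRNAs, PLK1 stood at 11.1% ± 1.10 (SD, n = 4 cultures) at T0, the second lowest of 543 genes after NUP62. HAUS1 stood at 14.4% ± 0.278, rank 5 from the lowest, while AURKA stood at 57.6% ± 0.997, DCTN3 at 62.3% ± 2.95 and C16orf59 at 137% ± 1.82, around a median of 92.4% over all genes. The starting composition of the library before transduction was not analysed here, so loss of cells before day 9 and a low share in the cloned library cannot be told apart. The consequence for depth was large: 1919 of 4560 PLK1 constructs (42.08%) and 2653 of 4560 HAUS1 constructs (58.18%) passed the T0 minimum, against 4479, 4480 and 4534 of 4560 for AURKA, DCTN3 and C16orf59. The PLK1 and HAUS1 constructs that passed are those with the higher T0 counts, so they do not stand for all constructs of these genes.

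Libraries held 182.6 to 460.7 megareads, with medians of 100 to 258 reads per construct and 0.1058% to 0.6644% of constructs at 0 reads. Reads came from PCR without molecular identifiers. Single knockdowns were read from 220 constructs per gene, in which the second sgRNA is non-targeting. Their levels below are mean reads per construct as a percentage of the mean over the 2970 constructs with 2 different non-targeting sgRNAs in the same library, without the T0 minimum. The tests used the constructs past that minimum. Growth is the log2 change from T0 to the reference endpoint relative to non-targeting constructs, response is the log2 change from the reference to the niraparib endpoint, and total is the change from T0 to the niraparib endpoint. Growth and response share the reference libraries, so a reference library that is low by chance lowers one and raises the other. Over the 55 single non-targeting sgRNAs, growth ran from -0.064 to 0.077, with 3 called. Their response ran from -0.086 to 0.050, with 2 called. Called values of genes within these ranges are no larger than those of controls. Knockdown itself was not measured, and sgRNA counts hold no markers by which the K562 label could be checked.

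Between T0 and the reference endpoint, constructs of all 5 genes were lost. The test called lower growth for 5 of the 5 genes, beside 81% of the 543 genes, so the calls themselves do not set these genes apart. Their sizes differed widely, from -0.88 for PLK1 to -3.01 for DCTN3.

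DCTN3 showed the largest loss. Its level at T0 was 60.5% and 59.1% in the 2022 cultures and 64.2% and 65.3% in the 2023 cultures. At the reference endpoint it was 8.78% and 8.82% in 2022 and 6.82% and 6.83% in 2023. Under niraparib it was 11.73% and 11.99% in 2022 and 9.23% and 9.29% in 2023. All reference libraries were far below all T0 libraries, and within each screen both niraparib libraries were above both reference libraries. Growth was -3.01 ± 0.28 (SD, n = 4 cultures; edgeR quasi-likelihood test, adjusted p = 1.87e-10), the fifth lowest of 543 genes.

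HAUS1 fell from 14.7% and 14.2% at T0 to 3.11% and 3.09% at the reference endpoint in 2022. In 2023 it fell from 14.1% and 14.5% to 2.65% and 2.49%. Under niraparib it stood at 3.73% and 3.57% in 2022 and at 2.52% and 2.73% in 2023. The 2022 niraparib libraries lay above their reference libraries, and the 2023 ranges of the arms overlapped. Growth was -2.23 ± 0.14 (n = 4; adjusted p = 3.26e-09 by edgeR), rank 20 of 543 from the lowest.

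C16orf59 was the only member above the non-targeting level at T0, at 135.0% and 135.1% in 2022 and 138.2% in both 2023 cultures. It fell to 53.8% and 56.6% at the reference endpoint in 2022 and to 52.96% and 52.89% in 2023. Under niraparib it stood at 77.1% and 74.5% in 2022 and 71.3% and 73.3% in 2023. In every culture the niraparib library lay between the T0 and the reference library. Growth was -1.34 ± 0.06 (n = 4; adjusted p = 3.26e-09 by edgeR).

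AURKA fell from 58.5% and 58.4% to 26.6% and 28.4% in 2022 and from 56.4% and 57.3% to 24.3% and 24.9% in 2023. Under niraparib it stood at 30.8% and 30.6% in 2022 and at 24.9% and 24.8% in 2023. The niraparib libraries of 2022 were above both reference libraries, and of those of 2023 one lay above both and one between them. Growth was -1.15 ± 0.08 (n = 4; adjusted p = 5.59e-09 by edgeR).

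PLK1, already at 12.3% and 11.9% at T0 in 2022 and at 10.2% in both 2023 cultures, had the smallest further loss. At the reference endpoint it stood at 6.51% and 6.67% in 2022 and at 5.38% and 5.33% in 2023. Under niraparib the values were 6.96% and 7.18% in 2022 and 5.42% and 5.35% in 2023. Reference and niraparib libraries overlapped in 2023. Growth was -0.88 ± 0.07 (n = 4; adjusted p = 4.15e-07 by edgeR), rank 177 of 543. In the order of growth (DCTN3, HAUS1, C16orf59, AURKA, PLK1), no 2 neighbouring genes overlapped over the 4 cultures. Scaling by the trimmed mean of all genes (TMM) moved the median growth of all genes by 0.45, and growth was then -2.55 for DCTN3, -1.77 for HAUS1, -0.89 for C16orf59, -0.70 for AURKA and -0.42 for PLK1, all past the threshold.

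Niraparib left relatively more C16orf59 and DCTN3 constructs than vehicle did. For C16orf59 the response was 0.52 and 0.40 in 2022 and 0.43 and 0.47 in 2023, a mean of 0.45 ± 0.05 (SD, n = 4; adjusted p = 2.95e-06 by edgeR). For DCTN3 it was 0.42 and 0.44 in 2022 and 0.44 in both 2023 cultures, a mean of 0.44 ± 0.01 (n = 4; adjusted p = 1.11e-06 by edgeR). Both ranked among the 35 highest of 543 genes, and their ranges over cultures overlapped. AURKA had 0.21 and 0.11 in 2022 and 0.04 and -0.01 in 2023, a mean of 0.09 ± 0.09 (adjusted p = 0.00621 by edgeR). HAUS1 had 0.27 and 0.18 in 2022 and -0.14 and 0.07 in 2023, a mean of 0.10 ± 0.17 (adjusted p = 0.0492 by edgeR). PLK1 had 0.14 and 0.07 in 2022 and 0.07 and -0.05 in 2023, a mean of 0.06 ± 0.08, and was not called (adjusted p = 0.169 by edgeR). Of the 5 genes, all but PLK1 were thus called higher, beside 44.2% of all genes, and the ranges of AURKA, HAUS1 and PLK1 overlapped.

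The AURKA and HAUS1 calls were fragile. Without replicate 1 of 2023 the AURKA response was 0.08 (adjusted p = 0.0874 by edgeR), and in the 2023 screen alone it was 0.02. The HAUS1 response was -0.03 in the 2023 screen alone, and its call was lost without replicate 1 of 2022 (0.08), replicate 2 of 2022 (0.12) or replicate 2 of 2023 (0.05), with either sgRNA alone, with either position alone and under TMM. The sign of the response also rests on the scale. The authors' deposited scores divide growth by a constant of 7.19 to 8.04 per reference culture and 4.98 to 5.4 per niraparib culture, a constant read here as cell doublings, a meaning that no source used here states. When the niraparib change was rescaled by these constants, called equal doublings here, the median of all genes moved to -0.20. On that scale C16orf59 stood at 0.03 (adjusted p = 0.686 by limma), and the values of DCTN3 (-0.79), HAUS1 (-0.92), AURKA (-0.42) and PLK1 (-0.33) were below 0 and past the threshold, as were those of 319 of 543 genes. The direction of the DCTN3, HAUS1 and AURKA responses was thus opposite on the scale of reads at harvest and on this scale. From T0 to the niraparib endpoint all 5 genes still fell, beside 82.1% of all genes, with values of -2.57 for DCTN3, -2.13 for HAUS1, -1.06 for AURKA, -0.88 for C16orf59 and -0.82 for PLK1.

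The screens differed for DCTN3. Its growth was -2.79 and -2.74 in the 2022 cultures and -3.24 and -3.26 in the 2023 cultures, a difference of -0.48 (2023 minus 2022; adjusted p = 0.000551 by edgeR), and the screens did not overlap. Lower growth in 2023 was called for 29.3% of all genes, and the 2023 cultures grew for 1 day longer. The other members were not called, beside 30.4% of all genes called in either direction (PLK1 -0.02, AURKA -0.12, HAUS1 -0.23, C16orf59 -0.09). For the response no member was called, beside 0.368% of all genes, the differences being -0.26 for HAUS1, -0.14 for AURKA, -0.09 for PLK1, -0.01 for C16orf59 and 0.01 for DCTN3. Of these, HAUS1 and AURKA were under an unadjusted p of 0.05 in the edgeR fit, and the adjusted p was 0.22 for both. The 2023 screen had the longer and higher exposure, and exposure and screen cannot be told apart.

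Single sgRNAs of a gene moved the same way in growth. The sgRNAs of C16orf59 gave -1.30 ± 0.05 and -1.37 ± 0.07 (SD, n = 4 cultures), and those of AURKA gave -1.27 ± 0.11 and -1.03 ± 0.06. For DCTN3 the values were -2.63 ± 0.27 and -3.37 ± 0.29, for HAUS1 -2.88 ± 0.12 and -2.10 ± 0.18, and for PLK1 -0.82 ± 0.07 and -1.09 ± 0.08. Of 110 constructs with non-targeting sgRNAs, 32 and 93 passed the T0 minimum for these HAUS1 sgRNAs and 68 and 23 for these PLK1 sgRNAs. For each sgRNA of AURKA, DCTN3 and C16orf59 all 110 passed. All 10 sgRNAs were called lower (adjusted p from 1.9e-10 to 1.32e-05 by edgeR), beside 76.9% of all sgRNAs. In the response the C16orf59 sgRNAs gave 0.42 ± 0.05 and 0.48 ± 0.07 and the DCTN3 sgRNAs 0.38 ± 0.03 and 0.50 ± 0.04. The AURKA sgRNAs both gave 0.09. The HAUS1 sgRNAs (0.06 and 0.10) and the PLK1 sgRNAs (0.05 and 0.11) were not called alone. So 6 of 10 sgRNAs were called higher in the response, beside 42.3% of all sgRNAs. Both AURKA calls were lost without replicate 1 of 2023 (0.08 and 0.07) and without replicate 2 of 2023 (0.09 and 0.11), and each was lost in 1 of the 2 positions alone. AURKA and its neighbour CSTF1 moved in the same directions: CSTF1 had a growth of -1.73 ± 0.11 and a response of 0.15 ± 0.02, both larger in size than those of AURKA, and the numbers in the names of the closest AURKA and CSTF1 sgRNAs lay 494 apart.

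Constructs with a pair of sgRNAs to the same gene could be read for 3 members, as none of PLK1 or HAUS1 passed the T0 minimum. These values are a description with no test. For DCTN3, constructs with 2 different sgRNAs had a log2 change of -3.87 ± 0.39 (SD, n = 4 cultures) from T0 to reference, against -2.72 and -3.50 for each sgRNA with non-targeting partners on the same scale. Constructs with the same DCTN3 sgRNA in both positions stood at -4.36 ± 0.94. For C16orf59, 2 different sgRNAs gave -1.58 ± 0.11 against -1.31 and -1.38, while the same sgRNA in both positions gave -1.29 ± 0.17, no lower than the singles. For AURKA only 1 of 2 such constructs passed, with a mean of 36.75 T0 reads, close to the minimum. It stood at -2.07 ± 0.74 against -1.30 and -1.06, with cultures from -2.88 to -1.34. Every culture thus lay below both single means, but the spread was wide and the value rests on 1 construct. The same AURKA sgRNA in both positions gave -1.41 ± 0.21. Under niraparib the double C16orf59 constructs stood at -0.97 ± 0.20 over T0, against -0.87 and -0.89.

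Other genes of the mitotic machinery were grouped in lists, of which the library held only a part. Over all 543 genes, 81% were called lower in growth, and 44.2% were called higher and 35.7% lower in response, so most counts of growth calls below are near that background. Among genes of centrioles and centrosomes, 4 of 33 were measured, and 4 of 4 fell in growth and rose in response, with a median response of 0.29 against 0.01 over all genes. Beside C16orf59 these were CEP63, which helps to start centriole duplication (growth -1.59, response 0.29), CEP135, a centriole scaffold protein (-0.94 and 0.30), and STIL, a duplication factor (-0.90 and 0.22). At equal doublings CEP63 stood at -0.33 and was past the threshold, and CEP135 (-0.01) and STIL (-0.11) were not. Among dynactin, dynein and spindle motor genes, 5 of 36 were measured and 5 of 5 fell in growth. In response 2 of 5 rose, close to the share of all genes: DCTN3 and DCTN1, the large p150Glued subunit of dynactin (growth -1.604, response 0.53). At equal doublings DCTN1 stood at 0.01. DYNLL1, a dynein light chain, fell in response (-0.12), and DYNLRB1, another light chain, was at 0.02 and not called. DCTN5, a subunit of the pointed end of dynactin, went the other way, with a growth of -0.70 ± 0.23 and a response of -1.13 ± 0.25. Its start site lies 156 bases from that of PALB2, the partner of BRCA2 in homologous recombination, which had a growth of -0.46 ± 0.19 and a response of -1.02 ± 0.19. Whether the DCTN5 sgRNAs repressed PALB2 was not tested.

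Among mitotic kinases and their activators 9 of 29 were measured. In growth 8 of 9 fell, and CDC25A, a phosphatase that activates cyclin-dependent kinases, stood at 0.03 and was not called. AURKA (-1.15), PLK1 (-0.88) and PKMYT1, an inhibitory kinase of CDK1 (-0.86), had the 3 lowest values. CCNB1, which encodes the main mitotic cyclin B1, stood at -0.04 and was called, a value within the range of non-targeting sgRNAs. In response AURKA (0.09) and PKMYT1 (0.06) rose, 6 fell by 0.03 (CDC25C) to 0.17 (CDC25A), and PLK1 was not called. CDC25C, WEE1 (-0.065) and CCNB2 (-0.081) lay within the response range of non-targeting sgRNAs. At equal doublings both AURKA (-0.42) and PKMYT1 (-0.32) lay below 0 and were past the threshold. Of augmin and gamma-tubulin genes only HAUS1 was in the library, 1 of 24, so its complex cannot be compared. For the kinetochore, centromere and spindle checkpoint, 4 of 47 genes were measured and 4 fell in growth, led by HJURP, which loads the centromeric histone CENP-A (-3.15). CENPM (0.50), BUB3 (0.45) and HJURP (0.20) rose in response, of which HJURP stood at -1.21 and CENPM at -0.03 at equal doublings, and STRA13, also a Fanconi pathway protein, fell (-0.52). Of the anaphase promoting complex and mitotic exit, 4 of 22 were measured, and all 4 fell in growth and rose in response, from 0.11 for ANAPC2 to 0.88 for PPP2R1A. At equal doublings ANAPC2 stood at -0.03 and its call was lost, while PPP2R1A stood at 0.65 and kept it. In cohesin and condensin, 7 of 25 were measured. In growth 6 fell and PDS5B rose (0.03, beside 4.24% of all genes called higher), a value within the range of non-targeting sgRNAs. In response 5 fell while NCAPG2 (0.42) and WAPAL (0.39) rose. The MuvB, B-MYB and FOXM1 list had 7 of 7 measured, 5 fell in growth, led by LIN52 (-2.03), and in response 4 fell and RBBP4 rose (0.38), which at equal doublings stood at 0.0024 and was not called. In homologous recombination, 30 of 34 were measured, 24 fell in growth, a share near that of all genes. In response 25 of 30 fell and 5 were not called, with a median of -0.49 against 0.01 over all genes.

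Constructs with sgRNAs of 2 genes gave interaction scores. A score is the difference between the measured log2 change over T0 and that predicted from the partner's single knockdown by a degree 2 curve, so that a value below 0 means fewer reads than predicted and above 0 more. The reference score uses the vehicle arm, the niraparib score the drug arm, and the differential score is niraparib minus reference. Both arms share T0 libraries, so the reference and niraparib scores of a pair are not independent. Of 542 possible partners, 526 were scored for PLK1, 536 for HAUS1, 541 for DCTN3 and 542 each for AURKA and C16orf59. The median SE of a reference score was 0.12 for PLK1 and 0.15 for HAUS1, against 0.051 over all pairs, 0.056 for AURKA, 0.074 for DCTN3 and 0.048 for C16orf59. Reference profiles correlated between cultures with a median Pearson r of 0.54 over 542 partners for C16orf59, 0.37 for DCTN3, 0.23 for AURKA, 0.17 for PLK1 and 0.07 for HAUS1. These correlations are across partners of the same libraries and are a description. The profiles of PLK1 and HAUS1 repeated poorly.

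The direction of the called scores differed by gene. In the reference arm C16orf59 had 41 partners called lower and 1 higher, beside 1.28% of all pairs lower and 1.07% higher. DCTN3 had 14 lower and 29 higher, HAUS1 9 and 13, AURKA 2 and 5, and PLK1 0 and 27. The median reference score over all partners was -0.079 for C16orf59 and 0.091 for PLK1. It was 0.018 for AURKA, 0.016 for HAUS1 and -0.0076 for DCTN3. The part of these shifts of whole profiles in the counts was not tested. For PLK1 155 scores had an unadjusted p under 0.05 by limma. In the niraparib arm, beside 2.63% lower and 2.49% higher over all pairs, the counts were 32 lower and 6 higher for C16orf59, 15 and 22 for DCTN3, 7 and 24 for HAUS1, 7 and 14 for AURKA, and 2 and 52 for PLK1. Median niraparib scores were -0.049 for C16orf59, 0.14 for PLK1, 0.031 for AURKA, 0.049 for HAUS1 and -0.019 for DCTN3. Differential scores were rarely called, beside 0.252% lower and 0.216% higher: 1 lower and 2 higher for C16orf59, 0 and 2 for PLK1, 1 and 0 for HAUS1, and 0 for AURKA and DCTN3, which had 56 and 73 scores with an unadjusted p under 0.05 by limma. The named PLK1 pairs rest on 1 to 5 of 8 constructs with means of 36.1 to 82.3 T0 reads, close to the minimum of 30, and the part of this selection in the PLK1 excess of higher scores was not tested. Over all 5 genes the reference calls numbered 65 lower and 72 higher. With any 1 culture left out they fell to 4 to 9 lower and 12 to 21 higher. The shares over all pairs in those fits are not given here, so whether the fall is particular to these genes was not tested.

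The lowest reference scores of C16orf59 were with CCNB1, CENPF and CEP63. With CCNB1 the reference score was -0.63 and -0.81 in the 2022 cultures and -0.85 and -0.89 in the 2023 cultures, a mean of -0.79 (SE 0.05; adjusted p = 0.00635 by limma). The niraparib scores of that pair were -0.76, -0.77, -0.80 and -0.84, a mean of -0.80 (adjusted p = 0.00134 by limma). CCNB1 knockdown alone changed growth by -0.04 ± 0.02, within the range of non-targeting sgRNAs. C16orf59 knockdown alone already changed it by -1.34 ± 0.06, and the score is the loss beyond prediction. All 4 sgRNA pairs were below 0, at -0.99, -0.59, -1.11 and -0.49 in the reference arm, with the lower values from one CCNB1 sgRNA. CENPF, a large kinetochore and microtubule protein, gave -0.58, -0.57, -0.63 and -0.70 in the reference arm, a mean of -0.62 (adjusted p = 0.00635 by limma), and a niraparib mean of -0.72. Its own growth was -0.32. CEP63 gave -0.53, -0.56, -0.73 and -0.65, a mean of -0.62 (adjusted p = 0.00709 by limma), and -0.52 under niraparib. The reference and niraparib calls with CCNB1, CENPF and CEP63 held with any 1 culture left out. From the lists, PKMYT1 (-0.37), BRCA2 (-0.29) and BUB3 (-0.23) were also called lower in the reference arm, and BUB3 (-0.39), CENPM (-0.36), DCTN1 (-0.42) and PKMYT1 (-0.31) under niraparib. Of 9 mitotic kinases and activators 3 were called lower in each arm, AURKA among them. Of all 542 C16orf59 partners 41 were called lower in the reference arm and 32 under niraparib. None of 4 genes of the anaphase promoting complex list and none of 7 of cohesin and condensin were called in either arm. At the shares over all partners this does not set those lists apart.

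Under niraparib C16orf59 had 6 partners called higher. Of 30 recombination genes 1 was called higher and none lower, with a median score of -0.0014 against -0.05 over all partners. The 3 highest called scores were with FANCB, RIF1 and C19orf40. RIF1 limits resection of DNA ends (0.33), and C19orf40 is also known as FAAP24 (0.31). FANCB is a subunit of the core ubiquitin ligase (0.40, adjusted p = 0.0233 by limma). UBE2T, the ubiquitin-conjugating enzyme of that pathway, had a differential score of 0.36 and 0.44 in 2022 and 0.33 and 0.43 in 2023, a mean of 0.39 (adjusted p = 0.0444 by limma). FANCD2, which that ligase modifies, had 0.34, 0.37, 0.46 and 0.56, a mean of 0.43 (adjusted p = 0.0489 by limma). The single knockdowns of these genes were lower under niraparib (FANCB -1.56, FANCD2 -1.11, UBE2T -0.92). The niraparib score of C16orf59 was 0.28 with UBE2T, which was called, and 0.24 with FANCD2, which was not. BARD1 had a niraparib score of 0.42 with C16orf59 and was not called (adjusted p = 0.0607 by limma). Both differential calls were lost without any 1 of the 4 cultures. In those fits the niraparib calls with FANCB and C19orf40 were kept in 1 of 4, and those with RIF1 and UBE2T in 0 of 4.

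AURKA and C16orf59 scored below prediction together. The reference scores were -0.43 and -0.75 in 2022 and -0.78 and -0.44 in 2023, a mean of -0.60 (adjusted p = 0.0212 by limma). Under niraparib they were -0.50, -0.46, -0.73 and -0.61, a mean of -0.58 (adjusted p = 0.00664 by limma). All 4 sgRNA pairs were below 0 in both arms, and reads fell from a mean of 188.9 at T0 to 70.7 in reference. The niraparib call held with any 1 culture left out, while the reference call was lost in each of those 4 fits, with means of -0.66 to -0.54. AURKA with DCTN3 lay above prediction, at 0.74, 0.78, 0.31 and 0.67 in the reference arm, a mean of 0.62 (adjusted p = 0.0242 by limma), and at 0.62 under niraparib (adjusted p = 0.0148 by limma). DCTN3 with PLK1 had 0.59, 0.77, 0.78 and 0.16, a mean of 0.57 (adjusted p = 0.0497 by limma), and 0.86 under niraparib (adjusted p = 0.0169 by limma), from 2 of 8 constructs with a mean of 38.6 T0 reads.

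C16orf59 with HAUS1 was the only C16orf59 pair called higher in the reference arm, at 0.55, 0.71, 0.49 and 0.95, a mean of 0.67 (adjusted p = 0.0193 by limma). Under niraparib it was 0.17, 0.21, -0.23 and 0.33, a mean of 0.12 that was not called, and the differential score was -0.55 (adjusted p = 0.0422 by limma). This pair rests on 7 of 8 constructs with a mean of 64.0 T0 reads, and the differential call was lost with any 1 culture left out. The remaining pairs among the 5 genes were not called in any score: AURKA with HAUS1 (reference 0.05), AURKA with PLK1 (0.25), C16orf59 with DCTN3 (-0.16), C16orf59 with PLK1 (0.08) and DCTN3 with HAUS1 (0.42, with cultures from -0.46 to 1.20). PLK1 with HAUS1 had no construct past the T0 minimum.

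DCTN3 had 29 partners called higher and 14 lower in the reference arm. The 3 highest were NUP62, a nuclear pore protein (0.97), EIF4A3, the helicase of the exon junction complex (0.96), and CSTF1 (0.77). RBM8A, a further exon junction protein, had a niraparib score of 0.50 and 0.81 in 2022 and 0.96 and 0.86 in 2023, a mean of 0.79 (adjusted p = 0.00658 by limma), whose call held with any 1 culture left out. Among list genes RPA2, a subunit of the single-strand binding protein RPA, stood at 0.71 in reference and 0.70 under niraparib, and HJURP (0.51), RPA1 (0.45), FOXM1 (0.41) and CEP63 (0.39) were among those called higher in reference. Below prediction were HSD17B12, a fatty acid elongation enzyme (-0.68), ZNF574 (-0.56), PPP2R2A, a regulatory subunit of phosphatase 2A (-0.54), SHMT2, the mitochondrial serine hydroxymethyltransferase (-0.54), BRCA2 (-0.45), BARD1 (-0.39) and RAD54L (-0.27). Under niraparib the 3 lowest were G3BP1 (-0.68), SHMT2 (-0.62) and CAD, which starts pyrimidine synthesis (-0.58). NUP62 with DCTN3 rests on 2 of 8 constructs, and DCTN3 constructs with CAD had a mean of 8.09 reads at the reference endpoint. The DCTN3 constructs with HSD17B12, ZNF574, PPP2R2A and SHMT2 had means of 106.5 to 148.3 reads at T0 and of 16.9 to 19.1 at the reference endpoint, so counting error is large there.

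AURKA had few other called pairs. Besides DCTN3 the higher reference scores included IPO13, an importin (0.53, 0.50, 0.42 and 0.63, mean 0.52, adjusted p = 0.0100 by limma) and XRCC2, a homologous recombination protein (0.25). BRCA2 was the only lower one besides C16orf59, at -0.44, -0.46, -0.18 and -0.54, a mean of -0.40 (adjusted p = 0.0381 by limma). Under niraparib AURKA with BRCA2 was at 0.28 and not called, and the differential score of 0.68 missed the threshold (adjusted p = 0.0786 by limma). BRCA1 (0.30) and SNRPG, a core splicing protein (0.43), were among those called higher under niraparib, and UBE2T (-0.64), PPP2R2A (-0.34) and NOL6 (-0.75, from 2 of 8 constructs) lower. The direct CSTF1 pair with AURKA had a reference score of -0.05 and was not called.

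HAUS1 scores were noisier. CAND1, an exchange factor of cullin ligases, gave 0.89 and 0.88 in 2022 and 1.13 and 0.68 in 2023, a mean of 0.90 (adjusted p = 0.00742 by limma), which held with any 1 culture left out. The other high reference scores were with DCTN1 (0.80, from 3 of 8 constructs) and NUP54 (0.72, from 1 of 8 constructs), and from the lists EXO1 (0.64). CCNB1 (-0.68, from 8 of 8 constructs), SNAI1 (-0.64) and PABPC1 (-0.63) were called lower in reference. CCNB1 was thus among the lowest reference partners of both HAUS1 and C16orf59. The HAUS1 call with CCNB1 was kept in 1 of 4 fits with 1 culture left out, and under niraparib that pair was at -0.23 and not called. For each HAUS1 sgRNA the lower reference value came with the CCNB1 sgRNA that gave the higher values with C16orf59. Under niraparib PPP2CA (1.00), HJURP (0.87) and IPO13 (0.82) were highest, and BARD1 (0.82), BRCA1 (0.63), CEP63 (0.48), AUNIP (0.44) and ESCO2 (0.36) were also called higher. The PPP2CA score came from 2 of 8 constructs with a mean of 34.6 T0 reads and ran from 0.38 to 1.52 over cultures. The PPP2CA call was kept in 1 of 4 fits with 1 culture left out. The BARD1 score rests on 4 of 8 constructs with a mean of 8.56 niraparib reads and was 0.23 with a straight line. Its call was kept in 1 of 4 fits with 1 culture left out. PRKDC (-1.48), ADPRM (-0.68) and DNA2 (-0.52) were lowest, and MRE11A (-0.47) was called lower. Of 30 recombination genes 3 were called higher and 2 lower, beside 24 higher and 7 lower of all 536 HAUS1 partners. The PRKDC score came from 2 constructs with a mean of 33.5 T0 and 8.5 niraparib reads and ran from -2.03 to -0.39 over cultures.

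PLK1 was called above prediction with HJURP in both arms (1.14 in reference and 0.98 under niraparib, from 3 of 8 constructs) and in the reference arm with GEMIN2 (0.91) and SDAD1 (0.90). The highest niraparib scores were with NDNL2, also known as NSMCE3, a subunit of the SMC5/6 complex (from 1.02 to 1.501 over cultures, mean 1.23, adjusted p = 0.00209 by limma), NMNAT1, a nuclear NAD synthesis enzyme (1.06), and WDHD1, a replication fork protein (1.05). The first 2 calls held with any 1 culture left out. Recombination genes PSMC3IP (0.66), PALB2 (0.63), RAD50 (0.59), RAD51D (0.45) and RAD54L (0.40) were called higher under niraparib, 5 of 30 measured, beside 52 of all 526 PLK1 partners, and the median score of that list was 0.20 against 0.14 over all PLK1 partners. LIN52 (0.56) and FOXM1 (0.39), both of the MuvB, B-MYB and FOXM1 list, and CHTF18 (0.55) were called higher too. Of the MuvB, B-MYB and FOXM1 list these were 2 of 7 partners, and none of the 7 was called in the reference arm. The median niraparib score of that list was 0.13 against 0.14 over all PLK1 partners. PRELID1 (-0.62, from 1 of 8 constructs) and RUVBL1 (-0.41) were the only lower calls. ESCO2 (0.70) and DDX11 (0.54), both of sister chromatid cohesion, had the called differential scores, and both were lost with any 1 culture left out. Neither had a called reference or niraparib score with PLK1. The ESCO2 score rests on 2 of 8 constructs with a mean of 37.1 T0 reads. Of its sgRNA pairs, 1 stood at -0.35 in reference and -0.36 under niraparib, and the other at -0.75 and 0.66.

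With PARP1, the target of the drug, no member had a called score. The reference scores were 0.31 for PLK1, -0.12 for AURKA, -0.40 for HAUS1, -0.16 for DCTN3 and -0.16 for C16orf59, and the niraparib scores were 0.07, 0.27, -0.24, 0.05 and -0.03. AURKA came closest under niraparib (adjusted p = 0.0535 by limma). BRCA2 was called lower in the reference arm with AURKA, DCTN3 and C16orf59 and stood at -0.54 with HAUS1 and -0.01 with PLK1, neither called. With 1 culture left out, the AURKA call was kept in 1 of 4 fits and the DCTN3 and C16orf59 calls in 0 of 4. Under niraparib no BRCA2 score was called.

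Genes with the most similar reference profiles were listed by Pearson r over shared partners, as a description, since all profiles come from the same libraries. For C16orf59 these were PPP2R1A (r = 0.51), CEP135 (0.39) and CENPF (0.37) over 541 partners, against a median of 0.01 over all genes. Under niraparib the same 3 genes had the highest values, at 0.46 for CEP135, 0.46 for PPP2R1A and 0.43 for CENPF. DCTN3 was most like RABGGTB (0.62), HJURP (0.61) and CENPM (0.60), and AURKA most like RSL1D1 (0.54), RABGGTB (0.50) and CENPM (0.49), with CSTF1 at rank 21 of 542 (0.45). PLK1 was most like RBM8A (0.50), RPA2 (0.45) and EIF4A3 (0.42), of which RBM8A also had a T0 level among the 10 lowest. HAUS1 had no value above 0.24, reached with RUVBL1, followed by RPA2 (0.21) and CNOT1 (0.19). Among the 5 genes the highest value was 0.41 for AURKA with DCTN3 and the lowest -0.30 for C16orf59 with PLK1.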

How the data were processed

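The data are read counts of sgRNA pairs, amplified by PCR from genomic DNA without molecular identifiers, in 12 libraries (3 arms in 4 cultures). The deposited count tables hold raw read counts per construct, per the file headers and values. Bowtie2 2.3.4.1 is listed in the submitters' processing notes, and its role is not given in the sources used here. The authors' deposited log2 scores (log2 changes divided by a constant per library, with a pseudocount of 10) were used for those constants alone.

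Single knockdowns were tested with edgeR 4.0.16 (quasi-likelihood, R 4.3.3) on counts summed over constructs with a non-targeting sgRNA and a mean T0 count of at least 30. Library size came from constructs with 2 non-targeting sgRNAs, and culture was a block. Values ± SD are over 4 cultures, and the SE of the fit leaves out differences between screens. Interaction scores used log2((end + 1)/(T0 + 1)), a degree 2 curve over at least 100 partners, and limma 3.58.1 over 4 cultures. The Benjamini-Hochberg adjustment ran over all 543 genes and 55 non-targeting sgRNAs, or over 147044 of 147153 gene pairs, with a threshold of 0.05. The equal-doublings values were tested with limma. Replicate numbers pair libraries because, per the labels, both arms were split from the culture that gave the T0 sample. Replicate differences correlated between arms with r from -0.004 to 0.479 over 598 features, so the pairing rests on the labels. The labels give 2 biological replicates per screen. The edgeR p-values measure the spread between replicate cultures within a screen and not the SD over 4 cultures. The limma p-values measure the spread over the 4 cultures.

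The members and gene lists were chosen with earlier results of these data known, and the MuvB list was drawn up from the genes that the library holds. Named partners are the pairs among the 5 genes, PARP1, BARD1, BRCA1 and BRCA2, the 3 lowest and 3 highest called scores of each gene with 1 sign in all 4 cultures, called list genes and the 3 most similar profiles. CSTF1, PALB2, FANCB, FANCD2 and UBE2T singles and the neighbours of start sites were named after their values were seen. On simulated data, growth changes of 0.25 and 1 in log2 were recovered for 100% of 100 genes each, with 8 false calls among 398 features, and reference scores of 0.5 for 74% and of 1 for 100% of 100 pairs each, with 41 false calls among 146839. Alternatives covered scaling (TMM, median-of-ratios), T0 minimum, pseudocount, curve, position, single sgRNA, screen, block and cultures left out. Some results are not reported here.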

Additional observations from a re-analysis of the deposited data

Results flagged for a closer look

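DCTN3 growth differed between the screens by -0.48 on the log2 scale (2023 minus 2022; edgeR quasi-likelihood test, adjusted p = 0.000551), with -2.79 and -2.74 in the 2022 cultures and -3.24 and -3.26 in the 2023 cultures. It was singled out because the test of the difference itself passed the threshold, as it did for 29.3% of all genes in this direction. The screens differ in harvest day and year, which cannot be told apart. Each group held 2 libraries, too few for a test of outlying samples.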

How the results depend on the processing

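Of the values that answer a comparison, 445 kept their direction, side of the threshold or size, 56 moved, 13 reversed, 9 gained and 17 lost the call, and growth and total change of the 5 genes kept their calls in every alternative that gave a value. A T0 minimum of 100 gave no single-knockdown value for PLK1 and HAUS1. The cause of the changes below was not tested. At equal doublings the response was -0.33 (PLK1), -0.42 (AURKA), -0.92 (HAUS1), -0.79 (DCTN3) and 0.034 (C16orf59, call lost). Median-of-ratios scaling gave PLK1 0.10 (called). In the 2023 screen alone AURKA was at 0.016 (call lost) and HAUS1 at -0.035. The HAUS1 call was lost under TMM (0.084), with the first (0.064) or second (0.10) sgRNA and in the first (0.075) or second (0.12) position. With 1 culture left out the response ranged from 0.064 to 0.11 for AURKA and from 0.046 to 0.15 for HAUS1. For single sgRNAs, the AURKA sgRNA 54967204 was at 0.065 in the first position alone and the AURKA sgRNA 54966756 at 0.072 in the second, both calls lost, and with 1 culture left out they ranged from 0.071 to 0.10 and from 0.056 to 0.12, with both calls lost without replicate 1 or replicate 2 of 2023. The HAUS1 sgRNA 43684369 ranged from 0.035 to 0.17 and the PLK1 sgRNA 23690749 from -0.039 to 0.23.

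For the difference between screens in growth, PLK1 was at 0.0015 under TMM and HAUS1 at -0.23 and called with no replicate block. With 1 culture left out it ranged from -0.10 to 0.055 (PLK1), -0.17 to -0.074 (AURKA) and -0.13 to -0.056 (C16orf59). In response C16orf59 was at 0.0057 under TMM and from -0.070 to 0.052 with 1 culture left out, AURKA from -0.19 to -0.094 and DCTN3 from -0.0027 to 0.023. No other call of single knockdowns changed without the replicate block.

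Counts of called pairs moved most. Reference scores (65 lower, 72 higher) gave 171 and 173 with a pseudocount of 10, 101 lower with no replicate block, 22 higher at a T0 minimum of 100, 116 higher with a straight line, 2 and 0 in 2022 alone, 0 and 0 in 2023 alone, and 4 to 9 and 12 to 21 with 1 culture left out. Niraparib scores (62 lower, 116 higher) gave 134 and 250, 41 higher at the T0 minimum of 100, 181 higher with a straight line, 7 and 26 in 2022, 12 and 29 in 2023, and 13 to 20 and 46 to 60 with 1 culture left out. Differential scores (1 lower, 4 higher) gave 10 and 27 with a pseudocount of 10, 0 and 2 at the T0 minimum of 100, 0 and 1 with a straight line, 3 lower with predicted endpoint reads of at least 10, 4 and 12 with no replicate block, 0 and 1 with screen as a term, 0 and 0 in either screen alone, and 0 and 0 to 2 with 1 culture left out. Of 73 named pair scores, 12 kept their call with each culture left out, 24 in none of these fits and 37 in 1 to 3, and none changed sign. Low counts limit the scores of PLK1 and HAUS1.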
